A study of Mus musculus with 9 samples.

Results

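The genes described here are 10 epithelial genes of mouse hepatoma cells: the keratins Krt7, Krt8, Krt18 and Krt19, the desmosome genes Dsp, Jup, Pkp2 and Dsg2, and the adhesion genes Cdh1 and Epcam. They were chosen by gene symbol, with earlier results of these data in view, out of 28932 genes in the deposited tables. Each gene is represented by the transcript row selected on the highest mean count over the 9 libraries, out of 58 rows that carry the 10 symbols. Of the 10 genes, 8 passed the filter on low counts, while Cdh1 and Epcam did not.

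The cells are labelled Hepa 1 WT, with HC1C as the name of the line, and come from a mouse hepatoma. RNA was taken after 6 h with FICZ at 10 nM (3 libraries), tryptamine at 50 uM (3 libraries) or neither (3 control libraries). The controls are labelled untreated, and the protocol names a vehicle. FICZ forms from tryptophan under light and is a ligand of the aryl hydrocarbon receptor (AhR), which switches on genes of foreign-compound metabolism, and the series title names tryptamine as a proligand of the same receptor that needs monoamine oxidases. All groups are the same line, with no genetic change named in the labels. Whether libraries within a group came from separate cultures is not stated, so the p-values measure the spread between these libraries, which may be technical.

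Keratins are the intermediate filament proteins of epithelial cells. A type II keratin such as Krt7 or Krt8 pairs with a type I keratin such as Krt18 or Krt19, and Krt8 with Krt18 is the pair of liver parenchymal cells, while Krt7 and Krt19 mark bile duct cells. At desmosomes, transmembrane cadherins such as Dsg2 bind the plaque proteins Jup (plakoglobin) and Pkp2 (plakophilin), and Dsp (desmoplakin) ties this plaque to the keratin filaments. Cdh1 (E-cadherin) forms adherens junctions, and Epcam is a surface protein of many epithelia.

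The upstream sequences of the 3 abundant keratins and of Dsp are shown because these genes carry most of the counts and the clearest difference between groups, and because both compounds act on a receptor that, with its partner ARNT, binds DNA at the core GCGTG. RefSeq's promoter table for GRCm38.p6 held 6 of the 10 genes. Each sequence is the 250 bases before the annotated start, 5′ to 3′ on the gene's own strand, and capitals mark the core on either strand (GCGTG or CACGC). Krt18 lies on the plus strand at chr15:102027966-102028215, Krt8 on the minus strand at chr15:102004343-102004592, Krt7 on the plus strand at chr15:101412153-101412402 and Dsp on the plus strand at chr13:38151044-38151293.
Krt18: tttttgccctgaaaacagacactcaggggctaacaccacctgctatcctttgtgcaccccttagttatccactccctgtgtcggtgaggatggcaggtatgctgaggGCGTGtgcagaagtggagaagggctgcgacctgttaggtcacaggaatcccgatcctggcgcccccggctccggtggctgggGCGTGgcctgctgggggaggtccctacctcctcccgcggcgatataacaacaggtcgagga
Krt8: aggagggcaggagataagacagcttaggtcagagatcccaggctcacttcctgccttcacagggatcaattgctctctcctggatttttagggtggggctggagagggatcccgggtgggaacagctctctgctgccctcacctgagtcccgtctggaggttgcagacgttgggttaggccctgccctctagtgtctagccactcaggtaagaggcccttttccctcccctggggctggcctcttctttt
Krt7: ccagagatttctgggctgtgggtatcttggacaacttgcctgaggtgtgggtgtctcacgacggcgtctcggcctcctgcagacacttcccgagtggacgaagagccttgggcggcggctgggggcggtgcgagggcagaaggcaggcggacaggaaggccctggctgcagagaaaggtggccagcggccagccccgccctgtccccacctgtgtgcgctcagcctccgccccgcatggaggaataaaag
Dsp: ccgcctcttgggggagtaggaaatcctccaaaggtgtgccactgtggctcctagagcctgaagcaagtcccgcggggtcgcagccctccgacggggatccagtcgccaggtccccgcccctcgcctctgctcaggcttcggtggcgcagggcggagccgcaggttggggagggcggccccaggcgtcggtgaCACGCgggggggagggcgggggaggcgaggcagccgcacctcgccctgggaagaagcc
The core occurred 2 times before Krt18, with its first base 143 and 61 bases before the start, and 1 time before Dsp, at 58 bases. It did not occur in the windows of Krt8, Krt7, Jup or Epcam. Of all 32851 windows of this length, 28.2% held the core. A match describes the letters and is not a binding site, and no match says only that these letters are not in the window. Krt8 and Krt18 are neighbours that point away from each other, with 23874 bases from one start to the other. The Dsp window held 72.4% G and C, against a median of 52.4% over all windows.

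Library totals over genes ran from 11594786 to 16715843 counts. Cyp1a1, the classical AhR target, read 63.9, 55.4 and 58.3 CPM (counts scaled to library size) in the controls, 1022.3, 1035.1 and 951 with FICZ and 674, 682 and 754 with tryptamine, so every treated library lay above every control. Control replicate 3 stood apart: its log CPM correlated with the other libraries at 0.954 to 0.960 across genes, and the lowest correlation among those 8 was 0.987. Relative to the other controls, its median log2 difference was 0.60 over the 1140 tested genes no longer than 1000 nt and -0.84 over the 1324 genes longer than 6000 nt. Because Dsp is among the long genes and the keratins are short, changes are given without this one beside those with all libraries. Of 15 hepatocyte markers, 7 passed the filter, led by Trf, Alb and Afp, while Ttr, Apob, Apoa1, Hnf4a and Asgr1 had no counts.

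Per kilobase of transcript, 3 keratins led the 10 genes. Over the 8 libraries other than control replicate 3, Krt18 averaged 1429.2 CPM per kb (1335.2 to 1511.3), Krt8 averaged 1041.5 (946 to 1120.2) and Krt7 averaged 556 (514 to 586). The Krt7 level uses its RefSeq row, since the row with the most counts is 4071 nt long, against 1586 nt, with nearly the same counts. With the rows chosen by count and all 9 libraries, Krt18 ranked 9 and Krt8 ranked 18 by CPM per kb among 12372 tested genes. Krt19 averaged 0.903 CPM per kb (0.343 to 1.47), so of the bile duct keratins Krt7 was abundant and Krt19 was low. The labels cannot say whether a low level is less RNA in every cell or fewer cells with the RNA.

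The desmosome genes followed below the keratins. Jup averaged 173 CPM per kb (146 to 193), Dsp 41.8 (36.6 to 48.2), Dsg2 20.5 (SD 0.901) and Pkp2 9.97 (8.18 to 11.7). From Krt18 down to Cdh1, no 2 neighbours in this order overlapped over the 8 libraries, and the order held in 9 of 9 libraries. The adhesion genes stood at the bottom. Cdh1 had 33 counts in all 9 libraries together, which is 0.254 CPM with a Poisson 95% interval of 0.175 to 0.357 that covers counting error only. Its counts were 2, 15 and 3 in the controls, 2, 5 and 0 with FICZ and 0, 6 and 0 with tryptamine, so 1 control library held 15 of the 20 control counts and no change can be read from them. Epcam had 0 counts in every library, which allows up to 0.0231 CPM over the 9 libraries (3 counts).

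**Figure D1:**
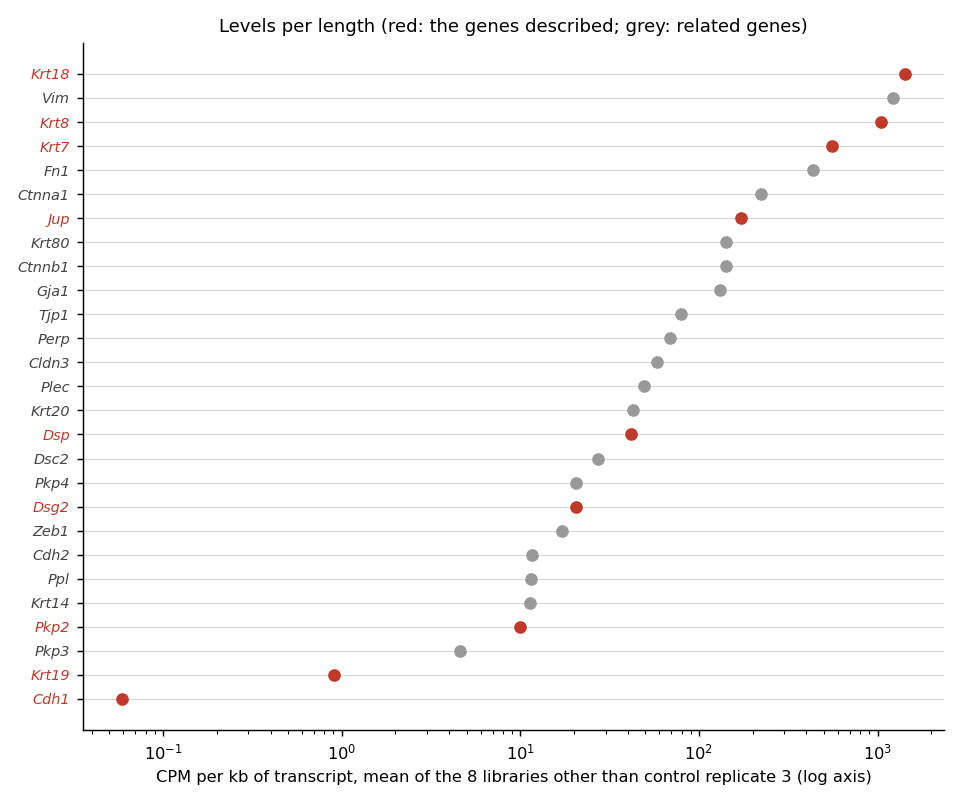
Levels per length of 9 of the 10 genes (red) and of related genes (grey), as CPM per kb averaged over the 8 libraries other than control replicate 3, on a log axis. Krt18 at 1429.2 and Krt8 at 1041.5 lie on either side of Vim at 1222.8, and Cdh1 at 0.0587 is lowest. Epcam had no counts and cannot be drawn on a log axis.

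Transcripts named for mesenchymal cells were measured beside them. Vim, the intermediate filament protein of mesenchymal cells, averaged 1222.8 CPM per kb over the 8 libraries, between Krt18 and Krt8. Cdh2 (N-cadherin) read 47.2 to 63.1 CPM in the same libraries, while Cdh3 (P-cadherin) had no counts. The catenins that carry classical cadherins were well expressed, with Ctnna1 at 223 and Ctnnb1 at 141 CPM per kb. Fn1 (fibronectin) averaged 433 CPM per kb and Zeb1, a repressor of Cdh1, 17.1. Of the other repressors of epithelial genes on the same list, Tcf4 averaged 26.4, Snai1 4.54 and Zeb2 2.13 CPM per kb. Snai2 and Twist1 had no counts and Twist2 had 2. Of 18 other keratin genes, 4 were tested and 4 had no counts. Krt80 led them at 142 CPM per kb, followed by Krt20 at 42.6 and Krt14 at 11.3. Of 12 other desmosome genes, 5 were tested, led by Perp at 68.6, Dsc2 at 27.3 and Pkp4 at 20.5 CPM per kb. Dsg1c had no counts, and Dsg3 and Dsg4 had 1 count each, so Dsg2 with Dsc2 was the cadherin pair with appreciable counts.

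The ratio of Krt8 to Krt18, from CPM per kb, was 0.733 and 0.718 in control replicates 1 and 2, 0.758, 0.722 and 0.695 with FICZ and 0.750, 0.780 and 0.675 with tryptamine. Groups overlapped. Control replicate 3 gave 0.578. Taking the type II keratins Krt7 and Krt8 together over the type I keratins Krt18 and Krt19, the ratio was 1.02 to 1.18 in the 8 libraries and 0.930 in control replicate 3. Processed pseudogenes of Krt8 and Krt18 exist, and the counting of reads shared with such copies is not stated, so both levels carry that uncertainty.

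In control replicate 3 the keratins were high and the desmosome genes low. Krt18 read 2112.9 and 2115.9 CPM in control replicates 1 and 2 and 3298.3 in replicate 3. Krt8 read 1995.9, 1959.9 and 2459.6, and Krt7 read 935, 913 and 1321.6. In the other direction, Dsp read 370.1, 351 and 148, Dsg2 read 121, 119 and 59.8, Pkp2 read 33.7, 33.9 and 22.3, and Jup read 603, 614 and 471. Control replicate 3 was thus the highest or the lowest of the controls for each of these genes, and Krt19 with 1.49, 1.79 and 1.71 was the exception. With 3 controls any library is often an extreme, and the share over all genes was not counted.

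**Figure D2:**
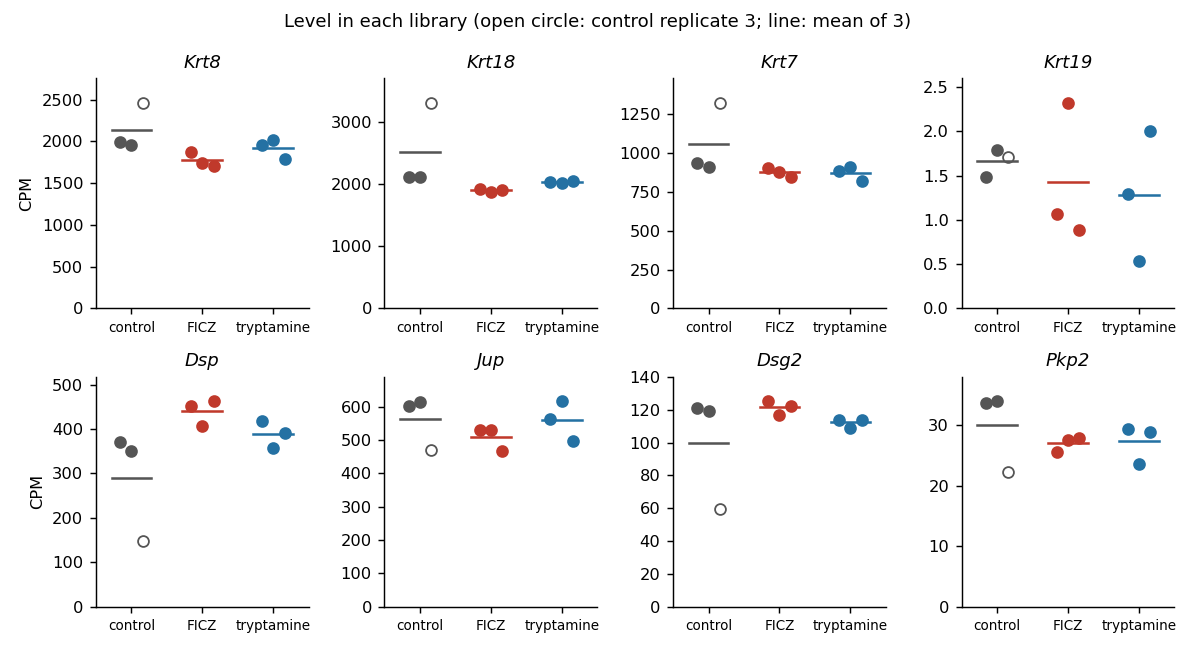
CPM of the 8 tested genes in each library, with 3 libraries a group, lines at the group means and an open circle for control replicate 3. That circle is the highest point for Krt8, Krt18 and Krt7 and the lowest for Dsp, Dsg2 and Pkp2.

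The same pattern ran along single genes. The tables list several transcript rows a gene, and 15 rows of 6 of the genes could be placed by transcript ID on a GENCODE M21 reference transcript and had enough counts for a ratio. For Jup, the placed row nearest the 3′ end (on average 699 nt from it) had 1.18 times the mean of control replicates 1 and 2 in control replicate 3. The full row (1602 nt) had 0.775 times and the row at the 5′ end (2910 nt) 0.306 times. For Dsp, the full row (4796 nt) had 0.412 times and the 5′ row (7887 nt) 0.109 times. For Dsg2, the full row (2882 nt) had 0.498 times and the 5′ row (5152 nt) 0.180 times. Krt18, at 718 nt, had 1.56 times. Rows of a gene share reads and are not independent. The cause of this pattern was not tested.

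**Figure D3:**
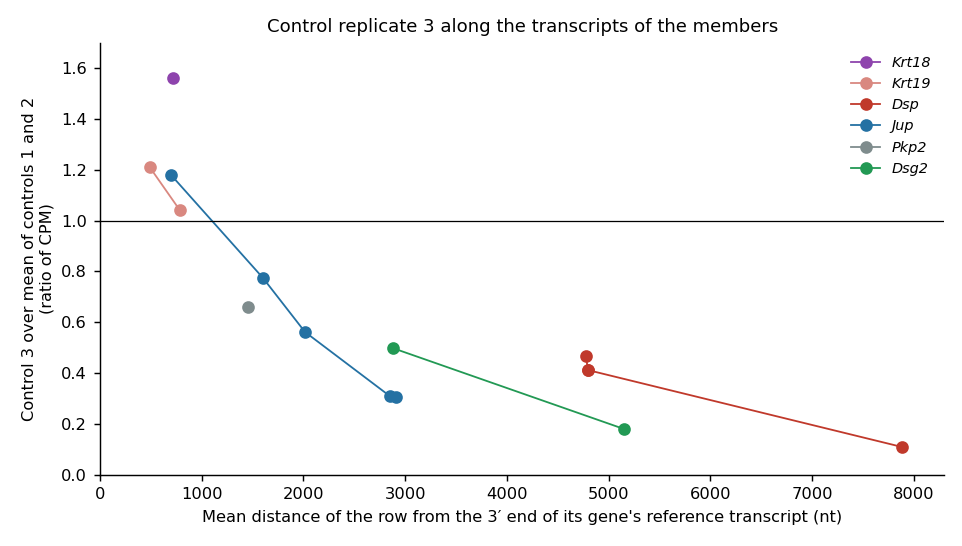
Ratio of CPM in control replicate 3 to the mean of control replicates 1 and 2 for 15 transcript rows of 6 genes, against the mean distance of the row from the 3′ end of the gene's reference transcript in nt. Lines join rows of 1 gene, and the ratio falls from 1.18 to 0.306 along Jup and from 0.412 to 0.109 along Dsp between the full row and the 5′ row.

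FICZ was compared with control to ask which of these genes respond to a direct AhR ligand. With all 9 libraries, edgeR's quasi-likelihood test called none of the 8 tested genes at a Benjamini-Hochberg adjusted p under 0.05, where it called 0.113% of all 12372 genes in either direction. At an unadjusted p under 0.05 it counted 3 of the 8 (Dsp, Krt18 and Krt8) and 1004 of all genes. DESeq2 called 54 genes and none of the 8. Leaving out control replicate 3, edgeR's test called Dsp alone among the 8, where it called 0.805% of 12539 genes in either direction and 0.574% as higher. DESeq2 without that library called 135 genes, 1 of them among the 8. At an unadjusted p under 0.05, edgeR's test then counted 5 of the 8 (Dsp, Jup, Krt18, Krt8 and Pkp2) and 1250 of 12539 genes.

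Dsp rose with FICZ once control replicate 3 was left out. It read 452, 407 and 462 CPM with FICZ, against 370.1 and 351 in control replicates 1 and 2, and the FICZ libraries lay above every control. The change was 0.29 ± 0.0700 on the log2 scale (SE), or 22.2% (95% interval 10.5 to 35.0), with an edgeR adjusted p of 0.0472. With all 9 libraries it was 0.60 ± 0.261 with an adjusted p of 0.601. Each transcript row was also tested as a row of its own. Without control replicate 3, the 3 rows that span most of Dsp each gave 0.29 with an edgeR adjusted p of 0.0461. They include the row that stands for the gene and share most of its reads, so they are not separate support for its change. The 5′ row gave 0.27 ± 0.152 and a single-exon row of 2092 nt gave 0.19 ± 0.0938. Rows of 1422 nt, 1147 nt and 557 nt gave 0.30 ± 0.111, 0.21 ± 0.124 and -0.003 ± 0.179. None of these 5 rows passed.

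The other plaque and cadherin genes did not rise with Dsp. Jup read 529, 530.1 and 467 CPM with FICZ and 603 and 614 in control replicates 1 and 2, a difference of -16.4% (95% interval -24.6 to -7.24, edgeR adjusted p 0.120). Pkp2 read 25.5, 27.6 and 27.9 against 33.7 and 33.9, a difference of -20.0% (-32.3 to -5.49, edgeR adjusted p 0.299). All FICZ libraries of both genes lay below these 2 controls, and neither gene passed. Dsg2 read 125, 117 and 122 against 121 and 119, and its groups overlapped, with a difference of 0.931% (-8.96 to 11.9). With all 9 libraries these differences were -9.62% for Jup, -9.95% for Pkp2 and 21.0% for Dsg2, none past the threshold. The ratio of Dsp to Jup, from CPM per kb, was 0.285, 0.256 and 0.330 with FICZ and 0.204, 0.191 and 0.105 in the controls. With tryptamine it was 0.247, 0.193 and 0.261, which overlapped the controls. These ratios were put together after the values were seen and have no test. Among the rows of Jup tested on their own without control replicate 3, a row of 2386 nt that leaves out the 3′ end passed with -0.33 ± 0.0699 (edgeR adjusted p 0.0163), while the full row gave -0.26 ± 0.0726 (0.117). A row of 1038 nt passed as well, with -0.31 ± 0.0768 (edgeR adjusted p 0.0461), and the other 9 Jup rows did not. With all libraries these 2 rows gave -0.10 and 0.037. They were singled out after their values were seen.

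The keratins did not pass with FICZ, and the libraries of the 3 abundant ones lay below the controls. Krt18 read 1911.8, 1869.3 and 1906.9 CPM, below both other controls, and differed by -10.3% without control replicate 3 (95% interval -15.9 to -4.28, edgeR adjusted p 0.137). With all libraries the same gene differed by -24.4% (-39.8 to -5.18, edgeR adjusted p 0.601). Krt8 read 1869.2, 1739.6 and 1707.5 and differed by -10.4% (-17.1 to -3.10, edgeR adjusted p 0.269) without the library and by -17.1% with it. Krt7 read 906, 880.3 and 845 and differed by -5.08% (-12.5 to 2.91), against -17.0% with all libraries. Krt19, with 13 to 39 counts a library under FICZ, had an interval of -56.5 to 79.9% and no difference was detectable at this depth.

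**Figure D4:**
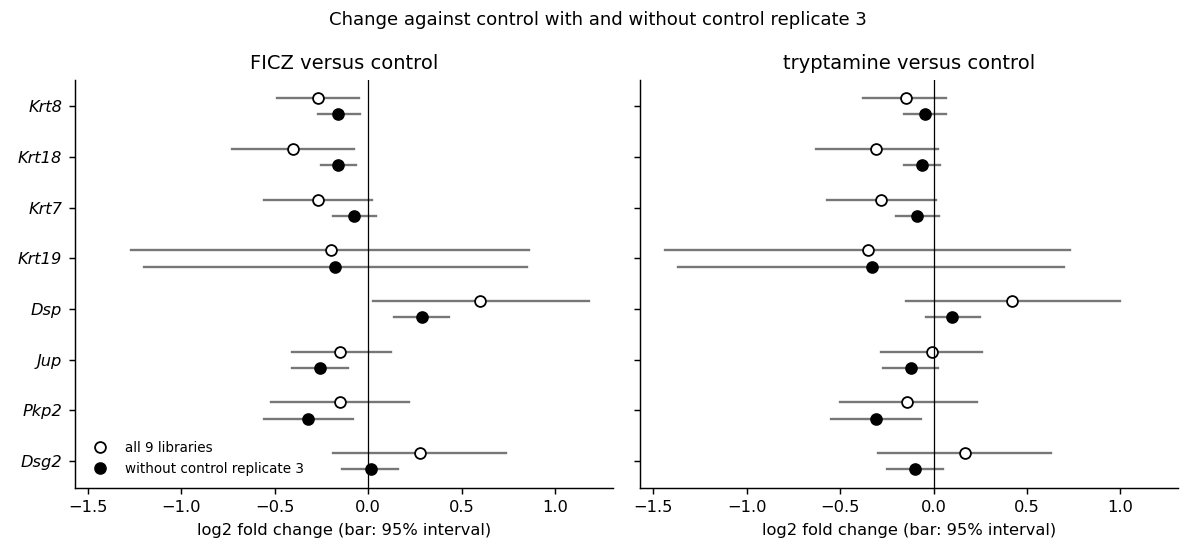
Log2 fold change of the 8 tested genes against control after FICZ (left) and tryptamine (right), with 95% intervals, from all 9 libraries (open) and without control replicate 3 (filled). For Dsp with FICZ the value moves from 0.60 to 0.29 and its interval narrows to 0.14 to 0.43.

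Counts of groups that do not overlap moved with the same library. With all 9 libraries, 4 of the 8 genes (Krt7, Krt8, Krt18 and Dsp) had FICZ libraries all on one side of the controls, where 15.6% of all tested genes did. Leaving that library out made it 6 of the 8, with Jup and Pkp2 added, where 27.9% of all tested genes did. The median log2 change of the 8 genes was -0.18 with all libraries and -0.16 without that one, against -0.006 and 0.000 over all tested genes. Since the 10 genes were picked with results in view, these counts are a description.

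The authors' deposited table, for which the submitters' processing notes name DESeq, gave smaller adjusted p-values with FICZ for the tested rows except Krt19. Krt19 had an adjusted p of 0.878 there, against 0.870 in the edgeR test with all libraries. In the authors' deposited table Dsp had a log2 change of 0.58 with FICZ (adjusted p 8.03e-06), and Krt18 had -0.48 (0.000116). The authors' deposited table also held Krt7 at -0.34 (0.0121) and Krt8 at -0.33 (0.016). None of the 10 genes stands in the authors' deposited lists of higher genes, 81 for FICZ and 22 for tryptamine. The cause of the gap between these p-values and those of the edgeR test was not tested.

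Tryptamine was compared with control in the same fit, and the 2 comparisons share their control libraries. None of the 8 genes passed edgeR's test with all libraries, where 0.00808% of genes did, and none passed without control replicate 3, where 0.199% did. At an unadjusted p under 0.05 there were 0 of the 8 and 637 of 12372 genes with all libraries. Without that library there were 1 of the 8 (Pkp2) and 825 of 12539 genes. DESeq2 called 12 genes with all libraries and 35 without that library, none of them among the 8. Dsp read 418, 357 and 390.4 CPM and overlapped control replicates 1 and 2 at 370.1 and 351, with a difference of 7.53% (95% interval -2.67 to 18.8) without control replicate 3 and of 34.0% (-10.1 to 99.7) with all libraries. Pkp2 read 29.4, 23.6 and 28.9, below both of those controls, and differed by -19.2% (-31.6 to -4.54, edgeR adjusted p 0.656), against -8.94% with all libraries. Jup read 564, 616 and 498 and overlapped them, at -8.26% (-17.3 to 1.77), against -0.604% with all libraries. Dsg2 read 114, 109 and 114, at -6.69% (-15.8 to 3.47), and it turned from 12.1% with all libraries.

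The size of the keratin differences with tryptamine depended on control replicate 3. With all libraries Krt18 differed by -19.1%, Krt7 by -17.4% and Krt8 by -10.1%, none past the threshold. Krt18 read 2026.8, 2011.3 and 2052.2 CPM and differed by -4.19% (95% interval -10.2 to 2.25) without control replicate 3, and Krt8 read 1960.4, 2022.0 and 1785.1 and differed by -3.00% (-10.3 to 4.90). Krt7 read 887, 911 and 820.5 and differed by -5.76% (-13.1 to 2.17). With all libraries Krt7 and Krt18 did not overlap the controls, where 10.1% of tested genes did not. After leaving that library out these were Krt7, Krt18, Pkp2 and Dsg2, where 20.1% of tested genes did not. In the authors' deposited table Krt18 had an adjusted p of 0.0229, Krt7 of 0.0393 and Dsp of 0.0463 with tryptamine.

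FICZ was also set against tryptamine directly, at doses that differ. None of the 8 genes passed edgeR's test, where 0% of genes did with all libraries (214 genes and none of the 8 had an unadjusted p under 0.05) and 0.136% did without control replicate 3. In the latter case 3 of the 8 (Dsp, Krt18 and Krt8) and 748 of 12539 genes had an unadjusted p under 0.05. DESeq2 called 10 genes with all libraries and 30 without that library, none of them among the 8. Without control replicate 3, Dsp was 13.6% higher with FICZ than with tryptamine (95% interval 3.97 to 24.1, edgeR adjusted p 0.563), and Krt18 differed by -6.38% (-11.7 to -0.761, edgeR adjusted p 0.727). With all libraries these differences were 13.4% and -6.61%. Krt18 and Dsg2 did not overlap between the treatments, where 11.3% of tested genes did not. A p that misses the threshold does not show that the compounds act alike on these genes.

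Among related genes, 1 plakin passed. Ppl (periplakin), a relative of Dsp that also links filaments to junctions, read 86.1, 88.2 and 81.8 CPM with FICZ, 66.5, 61.9 and 35.7 in the controls and 67.5, 64.6 and 58.7 with tryptamine. Every FICZ library lay above every other library. With control replicate 3 left out, Ppl rose by 0.41 ± 0.0885 (SE, edgeR adjusted p 0.0171) over control and by 0.43 ± 0.0786 (edgeR adjusted p 0.0100) over tryptamine. With all libraries the change over control was 0.64 ± 0.190 (edgeR adjusted p 0.574), and Ppl passed in neither comparison. With that library left out, Ppl was the only one of 7 tested genes among plakins and hemidesmosome genes to pass. Plec (plectin) read 780.5, 757 and 756 with FICZ against 725 and 708, and differed by 6.68% (edgeR adjusted p 0.660), against 36.6% with all libraries.

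Other junction lists held no gene past the threshold in any of the 3 comparisons, with or without control replicate 3. This held for 4 other keratins, 8 other intermediate filament genes, 5 other desmosome genes, 9 adherens junction genes, 12 tight and gap junction genes, 5 epithelial transcription and splicing factors and 5 mesenchymal transition genes that were tested. With that library left out, the median log2 change with FICZ was -0.22 for the other keratins, -0.042 for the other desmosome genes, -0.041 for the adherens junction and 0.004 for the tight and gap junctions, against 0.000 over all genes. Dsc2, the partner cadherin of Dsg2, read 106, 121 and 126 CPM with FICZ against 142 and 143, a difference of -17.2% (edgeR adjusted p 0.175), against -7.21% with all libraries. Cdh2 read 56.6, 47.2 and 48.7 against 59.7 and 62.3, a difference of -16.7% (edgeR adjusted p 0.345), against -0.226% with all libraries. Krt80 read 447, 407 and 382 against 377 and 379, a log2 difference of 0.12 (edgeR adjusted p 0.576), against 0.26 with all libraries.

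**Figure D5:**
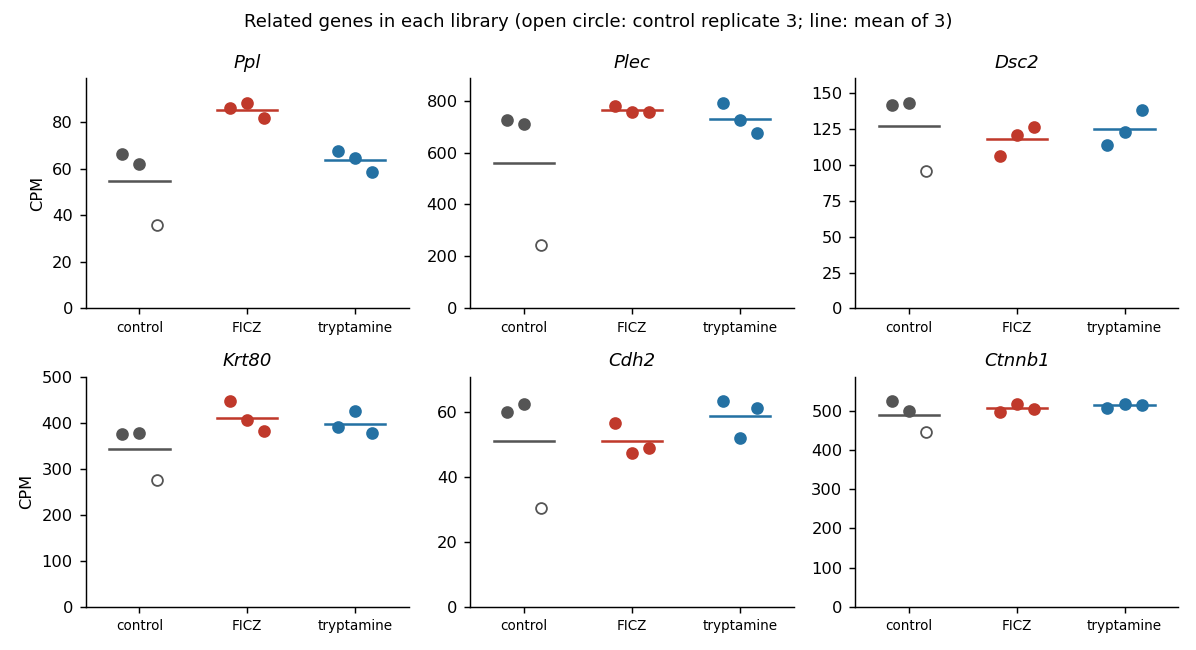
CPM of 6 related genes in each library, with 3 libraries a group, lines at the group means and an open circle for control replicate 3. The 3 FICZ points of Ppl, at 81.8 to 88.2, lie above all its other points, while Plec drops to 244 in control replicate 3.

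Markers of other cells were read beside these results. Of 9 fibroblast and stellate markers, 6 were tested. Their summed level was 1399.3 to 1699.8 CPM in the controls, 1629.7 to 1754.0 with FICZ and 1630.3 to 1772.4 with tryptamine. Col1a1 was the most abundant, Lum had no counts, Col1a2 had 11 counts in all, and Col3a1 rose with FICZ without control replicate 3 (0.39 ± 0.0929, edgeR adjusted p 0.0453), against 0.53 ± 0.137 with all libraries (0.498). Bile duct markers summed to 217 to 245, 201 to 219.8 and 209 to 218 CPM in the same order. Spp1 and Sox9 led them, and Prom1, Onecut1 and Cldn7 were among those at 0. Blood and endothelial markers summed to at most 20.9 CPM, and Emr1, Cdh5, Cd3e, Tek and Hbb-b1 had no counts. Their part in the changes of Dsp and Ppl was not tested.

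Across the 8 libraries, the genes varied together in part. Krt8 tracked Jup (Pearson r 0.919 of log2 CPM), Krt7 tracked Jup (0.839), and Dsp ran against Jup (-0.808) and Krt18 (-0.751). The libraries share 3 conditions, so these values describe the samples and carry no test. Several of them changed when control replicate 3 was added. With it, Krt8 with Jup gave 0.0659, Krt7 with Jup -0.236, Dsp with Jup 0.253 and Dsp with Krt18 -0.982, and Dsp with Dsg2 went from 0.511 to 0.970. Of 11409 genes, those most like Krt18 over the 8 libraries were Angpt1 (0.981) and Bzw2 (0.969), those most like Krt8 were Ngfrap1 and Dhx34 (both 0.964), those most like Krt7 were Jmjd8 (0.979) and Plekhg3 (0.970), and those most like Jup were Cops7a (0.988) and Ngfrap1 (0.976). Over all 9 libraries the values were 0.125 for Angpt1, 0.955 for Bzw2, 0.985 for Ngfrap1 and 0.330 for Dhx34 with Krt8, 0.994 for Jmjd8, -0.321 for Plekhg3, 0.837 for Cops7a and -0.00773 for Ngfrap1 with Jup.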

How the data were processed

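Total RNA of 9 libraries was sequenced (control, FICZ and tryptamine, 3 each). Per the file headers, the 3 deposited tables, 1 for each pair of groups, list 189660 transcripts with whole-number read counts per library, not normalized. The same deposited tables hold the authors' log2 fold changes, p-values and adjusted p-values, and the submitters' processing notes name DESeq. The sources used here do not state the aligner, counting rule, strand, genome build or annotation. The 18 further per-library columns, headed NE, were not used. All 9 repeated count columns were identical between tables.

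Counts of a gene are those of its transcript with the highest mean count. Rows with no gene ID (3.56 to 4.23% of counts) stayed out of the fit. All 9 libraries entered 1 edgeR 4.0.16 fit (R 4.3.3, TMM, filterByExpr, group only, quasi-likelihood test, Benjamini-Hochberg over all genes tested). The word passed means an adjusted p under 0.05. Adjusted p-values are from this fit unless another tool is named. CPM uses the effective library size, and SE is the log2 fold change over the square root of F. The fit was tested on simulated data. The common dispersion had a square root of 0.156, and of 0.0748 without control replicate 3.

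The genes, the lists and the tests were chosen with earlier results of these data known. Named genes are the 10 genes, Cyp1a1, list genes that passed and, for some lists only, the most abundant per kb. The 2 genes most alike to each of the 4 most abundant of the 10 are named too. Likeness used genes with a mean of at least 20 counts and log2 of CPM plus 0.5, with no test. Plec, Cdh2, Krt14, Zeb1, further genes of the mesenchymal and fibroblast lists, the list genes at 0 or few counts and the transcript rows were added to the named genes. Alternatives were DESeq2 1.42.0 size factors and its Wald test on the same filtered genes (restricted to them after its calls on all genes were seen), other filters, pairs of groups alone, a replicate block, sums over transcripts, a length offset and leaving out each library. Combinations without control replicate 3 and the RefSeq row were added after seeing the data. The labels do not say that replicate numbers mark a shared day or culture, so they were not used as pairs. Deviations of same-numbered libraries from their group means correlated at 0.044 to 0.116 between FICZ and tryptamine. With the controls they correlated at -0.0575 to 0.0413, and differently numbered libraries of any 2 groups at -0.122 to 0.102. Transcripts were placed by ID on GENCODE M21 where lengths agreed within 5% and at least 80% of bases lay inside the reference transcript, and no coordinates of that set are given. One marker gene is not reported here.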

Additional observations from a re-analysis of the deposited data

How the results depend on the processing

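The number of genes past the threshold depended on control replicate 3. With FICZ it was 14 with all libraries, 101 without that library and 4 to 101 when each of the 9 libraries was left out in turn. With tryptamine the range was 1 to 25, and for FICZ against tryptamine 0 to 17. For FICZ, tryptamine and their direct comparison, in that order, DESeq2's Wald test called 54, 12 and 10 genes and the length offset 52, 6 and 5. Without a filter on low counts, 26 and 2 genes passed with FICZ and tryptamine, and with sums over transcripts 4 and 2. The 6 libraries of a pair alone gave 2 genes with FICZ and 17 for FICZ against tryptamine, and the replicate block gave 4 with FICZ. The labels do not say that replicate numbers mark pairs, so the block stands only as an alternative. Without control replicate 3, the replicate block gave 206, 45 and 37 genes, the length offset 117, 28 and 21, and DESeq2 135, 35 and 30.

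Of the 8 tested genes, 0 to 1 passed with FICZ when 1 library was left out. Without control replicate 3, 2 passed under the replicate block (Dsp and Krt18, adjusted p 0.00619 and 0.0302), and 1, Dsp, under the length offset, under DESeq2 and with RefSeq rows. Dsp with FICZ was above 0 in 23 of 23 alternatives (0.27 to 0.82 on the log2 scale), and so was Dsg2 (0.006 to 0.43). Krt18, Krt8, Krt7, Jup and Pkp2 were below 0 in 23 of 23. The alternatives reuse the same libraries, and most keep control replicate 3, so a constant sign is not separate support for a direction. Several values changed sign. Krt19 with FICZ ran from -0.76 to 0.046 when a library was left out. Jup with tryptamine turned to 0.016 with sums over transcripts and ran from -0.12 to 0.069 when a library was left out. Dsg2 with tryptamine ran from -0.100 (without control replicate 3, also with its RefSeq row) to 0.32, and turned to -0.11 with the replicate block, -0.096 with the length offset and -0.099 with DESeq2, each without that library. For FICZ against tryptamine, leaving out a library gave Krt7 -0.035 to 0.039, Krt19 -0.40 to 0.63, and Pkp2 -0.11 to 0.040. The cause of these turns was not tested.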
